A study of Mus musculus with 4 samples.

Results

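Mitochondrial ribosomal protein genes were followed from intestinal stem cells to villus enterocytes of the mouse. Members were all genes measured here whose symbol is Mrpl (large subunit) or Mrps (small subunit) with a number and at most 1 further letter, and no measured value entered that choice. The rule found 74 of the 12393 genes tested, 47 with an Mrpl and 27 with an Mrps symbol. Mrpl30 and Mrpl53 shared their probe sets with another symbol, and Mrps10 and Mrps27 had none listed, so these 4 were not analysed here. The stem group held 2 arrays of flow-sorted Lgr5(hi) cells from wild-type mice, and the enterocyte group held 2 arrays of villus cells from conditional Atoh1 knockout mice, released with EDTA. All samples were proximal intestinal epithelium of C57BL/6 mice aged 4 to 6 weeks, and the labels of all 4, wild type included, give tamoxifen at 1 mg per day for 5 days and a wait of 5 days. The titles call the 2 arrays of each group biological replicates. The sources used here name neither the driver of the Atoh1 deletion nor the number of animals behind each array, and p-values measure the spread between these arrays. The groups differ at once in cell type, genotype and isolation, which cannot be told apart.

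Mitochondria keep a ribosome of their own, built from ribosomal RNA of the mitochondrial genome and from proteins that are encoded in the nucleus, made in the cytosol and imported. It translates only the few membrane subunits of the respiratory chain and ATP synthase that the mitochondrial genome encodes, so its products must meet many nuclear-encoded partners. Some of its proteins descend from bacterial ribosomal proteins and others are found only in mitochondria. In the intestine, stem cells at the crypt base divide continually, and enterocytes of the villus are non-dividing absorptive cells rich in mitochondria.

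Levels of the deleted and the sorted gene were set beside the labels. Atoh1 was at log2 7.43 and 7.71 in stem and at 5.06 and 5.28 in enterocyte arrays, and Lgr5 was at 11.33 and 10.96 against 6.92 and 6.09. The sources used here do not name the deleted part of Atoh1, and its probe set may lie outside it. Cell type and genotype differ together between the groups, so the lower Atoh1 level does not check the deletion. All 8 measured stem cell markers were lower and all 9 measured enterocyte markers higher in the enterocyte arrays, past the threshold given below. Other cells moved with the groups as well. Lymphocyte markers were higher in 10 of 11 cases, their summed intensity being 654 to 911 in the stem and 8747 to 11813 in the enterocyte arrays. All 4 tuft cell markers were higher, with sums of 364 to 636 against 1903 to 2932. All 5 goblet cell markers were lower, with sums of 22681 to 24613 against 437 to 617, as were 4 of 6 enteroendocrine markers, with sums of 7830 to 9838 against 681 to 763. Of 3 Paneth cell markers 1 was lower, and their sums of 34336 and 46995 in stem arrays stood against 623 and 6032, which were uneven between the enterocyte arrays. Of 6 myeloid markers 2 were lower (2049 to 2928 against 455 to 478). No marker was listed at 0. The 3′ minus 5′ signal of the control probe sets, which widens when RNA or its labelled copies are short, was log2 2.06 and 2.10 for beta-actin and 1.70 and 1.92 for Gapdh in stem arrays. In enterocyte arrays it was 0.56 and 0.50 for beta-actin and 0.15 and 0.17 for Gapdh. The part of these differences in the results below was not tested. In such bulk samples, fewer cells of a type and less RNA per cell cannot be told apart.

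Mitoribosomal genes were more often lower than higher in enterocytes, by modest amounts, and a minority went the other way. Of the 74 members 36 fell and 8 rose, and 30 were not past the threshold (limma, Benjamini-Hochberg adjusted p under 0.05 over all 12393 genes, n = 2 arrays per group). Over all genes tested, 22.4% were lower and 18.2% higher at the same threshold. The median log2 difference, enterocyte minus stem, was -0.36 over the members and -0.003 over all genes. Among the 47 Mrpl genes 24 fell, 6 rose and 17 did not pass, with a median of -0.36. Among the 27 Mrps genes 12 fell, 2 rose and 13 did not pass, with a median of -0.25. By at least 2-fold 9 members fell and 1 rose, where 13.6% of all genes fell and 10.8% rose that far. Both arrays of a group lay beyond both arrays of the other in 64 of the 74 members, and in 65.3% of all genes. No member was near the detection limit: mean levels ran from log2 8.22 to 12.1, and the background level, the 90th percentile of 23 genes of other organs, was 5.97. Replicates differed by a median of 0.07 in the stem and 0.10 in the enterocyte arrays over the members, and the smallest called difference was 0.36 in size. Counts of calls were lower whenever 1 array was left out, among the members and over all genes alike. Such runs leave 1 array in a group, and with either stem array left out no gene at all was called. The medians of Mrpl and Mrps stayed below 0 in all 4 cases. The median over the members ran from -0.38 without stem replicate 1 to -0.30 without enterocyte replicate 2. Centring the arrays on 8 reference genes shifted the median of all genes to -0.37. It gave 54 falls and 4 rises among the members, and 5387 falls and 1737 rises over all genes. The reference genes were themselves not level between the groups. Before centring 3 of the 8 rose and 1 fell past the threshold, with a median difference of 0.42.

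**Figure D1:**
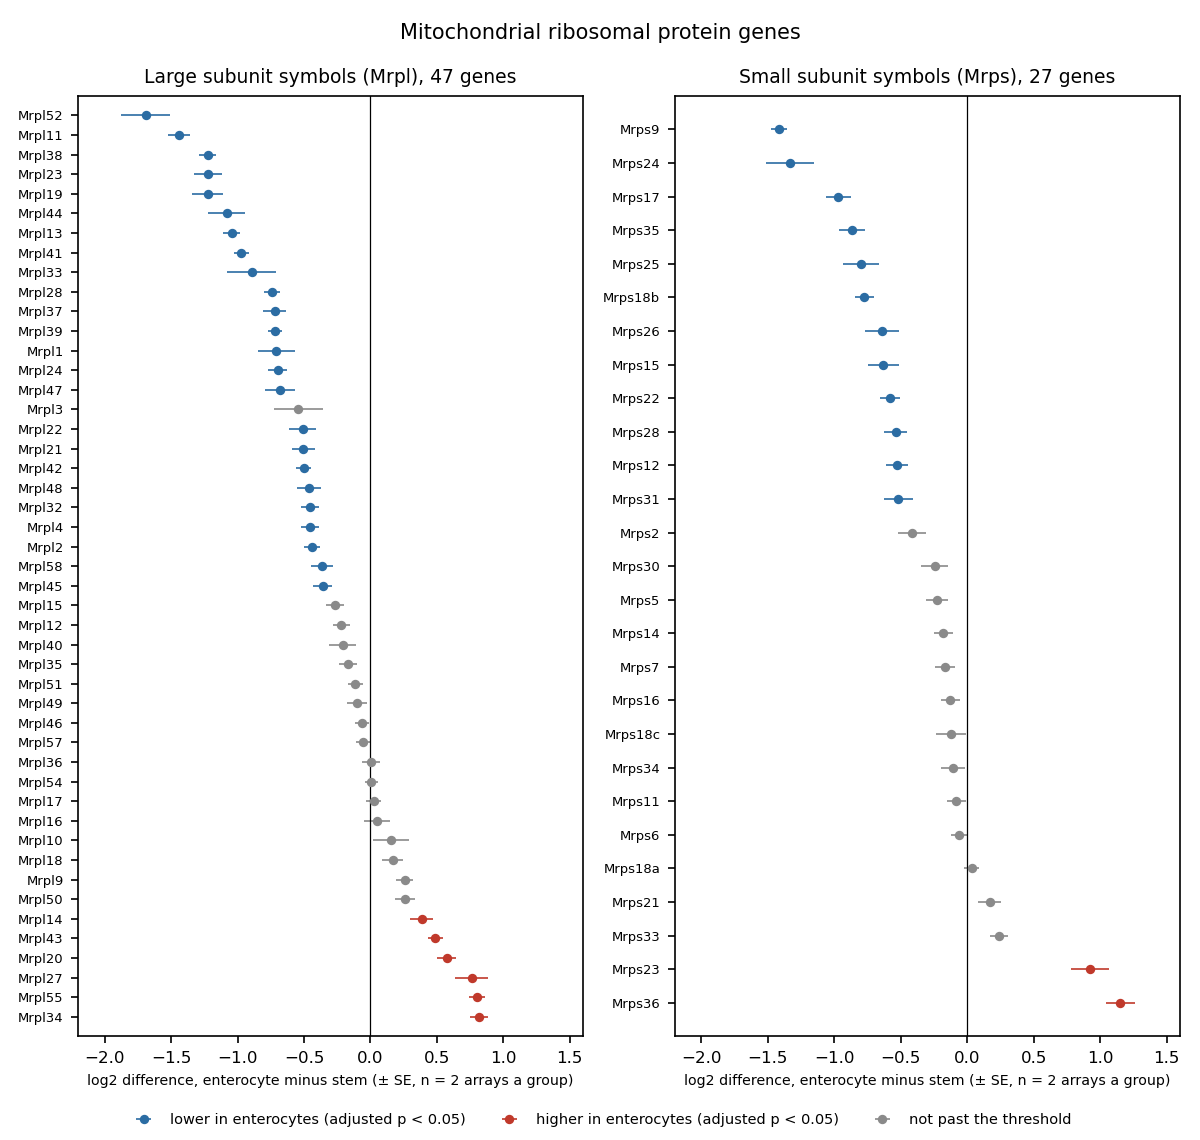
Log2 difference between enterocyte and stem arrays for each of the 74 mitoribosomal genes, with Mrpl symbols on the left and Mrps symbols on the right. Points are limma's estimates and bars its standard errors (n = 2 arrays per group); blue points are lower and red points higher past an adjusted p of 0.05. The order runs from Mrpl52 at -1.69 to Mrpl34 at 0.82 in the large subunit and from Mrps9 at -1.42 to Mrps36 at 1.15 in the small subunit.

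Promoters of the members were read next to these values, and 65 of the 74 members had at least 1 window in the RefSeq promoter table (GRCm38.p6, 250 bases before to 50 after the start, 300 in all). The windows of 5 members that changed and hold a searched motif are shown, each 5′ to 3′ on the gene's strand, with the motif match in capitals. Mrpl52 (chr14:54426659-54426958, plus strand) and Mrps9 (chr1:42850983-42851282, plus strand) had the largest falls of their subunits, and Mrps24 (chr11:5707652-5707951, minus strand) the next largest among Mrps genes. Mrpl27 (chr11:94653541-94653840, plus strand) and Mrpl43 (chr19:45006393-45006692, minus strand) are members that rose.
Mrpl52: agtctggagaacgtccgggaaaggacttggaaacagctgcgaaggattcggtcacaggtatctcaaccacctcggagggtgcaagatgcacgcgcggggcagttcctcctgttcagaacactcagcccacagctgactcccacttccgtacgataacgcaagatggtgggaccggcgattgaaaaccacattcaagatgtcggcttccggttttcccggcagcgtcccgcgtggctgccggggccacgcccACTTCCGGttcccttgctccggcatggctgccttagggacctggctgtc
Mrps9: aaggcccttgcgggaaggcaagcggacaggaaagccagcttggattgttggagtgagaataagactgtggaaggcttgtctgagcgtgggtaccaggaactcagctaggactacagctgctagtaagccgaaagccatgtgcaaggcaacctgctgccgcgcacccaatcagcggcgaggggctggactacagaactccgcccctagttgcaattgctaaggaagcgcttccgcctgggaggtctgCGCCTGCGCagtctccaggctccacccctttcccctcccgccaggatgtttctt
Mrps24: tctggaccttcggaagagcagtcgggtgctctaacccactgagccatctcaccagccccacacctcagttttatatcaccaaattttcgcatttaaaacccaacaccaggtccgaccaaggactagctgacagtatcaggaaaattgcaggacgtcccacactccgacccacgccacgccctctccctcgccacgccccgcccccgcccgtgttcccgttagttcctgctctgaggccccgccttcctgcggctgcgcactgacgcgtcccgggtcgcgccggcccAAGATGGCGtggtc
Mrpl27: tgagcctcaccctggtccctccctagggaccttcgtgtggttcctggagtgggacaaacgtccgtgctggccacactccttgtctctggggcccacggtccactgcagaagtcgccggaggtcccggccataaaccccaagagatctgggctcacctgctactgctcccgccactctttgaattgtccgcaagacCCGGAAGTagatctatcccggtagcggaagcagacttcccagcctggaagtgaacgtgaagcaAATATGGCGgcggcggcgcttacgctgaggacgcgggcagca
Mrpl43: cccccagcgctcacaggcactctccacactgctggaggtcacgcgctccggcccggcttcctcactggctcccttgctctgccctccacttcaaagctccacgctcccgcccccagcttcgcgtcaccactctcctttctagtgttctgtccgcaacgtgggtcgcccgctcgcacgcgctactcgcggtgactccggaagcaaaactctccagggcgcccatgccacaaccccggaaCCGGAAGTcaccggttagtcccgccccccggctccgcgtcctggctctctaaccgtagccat

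The searched motifs were CCGGAAGT, bound by ETS factors such as GABP, GCGCANGCG of NRF1, AANATGGCG of YY1, and the E-box CACGTG of Myc, each on both strands. GABP, NRF1 and YY1 are factors known to act on nuclear genes for mitochondrial proteins. In these windows CCGGAAGT lies in Mrpl52 (as its reverse complement), Mrpl27 and Mrpl43, GCGCANGCG in Mrps9 (reverse complement), and AANATGGCG in Mrps24 and Mrpl27. The ETS motif was present in 11 of 65 members (16.9%) and in 7.23% of 9887 tested genes with a window. The NRF1 motif was present in 15 (23.1%, against 12.5%), the YY1 motif in 10 (15.4%, against 4.72%) and the E-box in 5 (7.69%, against 10.8%). Members with and without each motif went in both directions. Among members with the ETS motif 5 fell and 2 rose of 11, and without it 25 fell and 6 rose of 54. With the NRF1 motif 8 fell and 1 rose of 15, and without it 22 fell and 7 rose of 50. With the YY1 motif 4 fell and 1 rose of 10. These are descriptions of letters in a window, with no test.

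Among large subunit genes the fall was largest in Mrpl52. Mrpl52, which encodes a protein found only in mitochondrial ribosomes (chr14:54426909-54429750), had log2 levels of 12.77 and 12.93 in stem and of 11.37 and 10.95 in enterocyte arrays. The groups did not overlap, and the enterocyte level was 3.23-fold lower (-1.69 ± 0.18 SE, adjusted p = 0.00977 by limma), the largest fall of any member. Mrpl11 (chr19:4962152-4966995) encodes the protein at the base of the stalk where translation factors dock. It was at 10.85 and 10.92 in stem and at 9.53 and 9.37 in enterocyte arrays, 2.71-fold lower (-1.44 ± 0.08 SE, adjusted p = 0.004 by limma). Mrpl38, of the central protuberance between the subunits (chr11:116131817-116138868), was at 9.03 and 9.13 in stem and at 7.84 and 7.86 in enterocyte arrays, a difference of -1.23 ± 0.07 SE with little spread in either group.

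Mrpl23 (chr7:142532467-142540747), whose bacterial relative sits at the exit of the peptide tunnel, was at 11.01 and 10.79 in stem and at 9.71 and 9.65 in enterocyte arrays (-1.22 ± 0.10 SE). Mrpl19 (chr6:81957826-81965949), whose bacterial relative lies at the interface of the subunits, was at 10.23 and 10.10 against 9.06 and 8.82 (-1.22 ± 0.12 SE). Mrpl44, a protein with a ribonuclease III fold that is specific to mitochondrial ribosomes (chr1:79776018-79781445), was at 10.59 and 10.48 against 9.61 and 9.30 (-1.08 ± 0.14 SE). In each of these genes both enterocyte arrays lay below both stem arrays, with adjusted p between 0.00364 for Mrpl38 and 0.0138 for Mrpl44 by limma. The other 18 Mrpl genes that fell had differences from -1.04 in Mrpl13 to -0.36 in Mrpl45. They include Mrpl58 (-0.36 ± 0.08 SE, adjusted p = 0.0429), a peptidyl-tRNA hydrolase built into the ribosome, and Mrpl45 (-0.36 ± 0.07 SE, adjusted p = 0.0336), which holds the ribosome to the inner membrane.

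Large subunit genes that rose were fewer and moved less. Mrpl34 (chr8:71464926-71465753), a short basic protein with a bacterial relative, was at 9.85 and 9.74 in stem and at 10.63 and 10.60 in enterocyte arrays, 1.76-fold higher (0.82 ± 0.07 SE, adjusted p = 0.00623 by limma). Mrpl55 (chr11:59202486-59206138) was at 8.71 and 8.75 against 9.57 and 9.50 (0.80 ± 0.06 SE). Both genes had enterocyte arrays above both stem arrays by far more than replicates differed. Mrpl27 (chr11:94653770-94661932), whose bacterial relative reaches into the peptidyl transferase centre, was at 10.66 and 10.39 against 11.24 and 11.33 (0.76 ± 0.12 SE), and Mrpl20 (chr4:155802878-155808831), which in bacteria is needed early in assembly of the subunit, at 10.07 and 10.20 against 10.71 and 10.70 (0.57 ± 0.07 SE). Mrpl43 (0.49 ± 0.06 SE) and Mrpl14 (0.38 ± 0.09 SE, adjusted p = 0.0489) were the other rises. Under reference gene centring the calls of Mrpl34 (0.46, adjusted p = 0.028 by limma) and Mrpl55 (0.44, adjusted p = 0.0397) held. Those of Mrpl27 (0.40, adjusted p = 0.0505), Mrpl20 (0.21, adjusted p = 0.283), Mrpl43 (0.13, adjusted p = 0.496) and Mrpl14 (0.02, adjusted p = 0.907) were lost. At the flat end of the order, Mrpl36 had 9.18 and 9.13 in stem and 9.21 and 9.11 in enterocyte arrays, and Mrpl54 had 9.41 and 9.42 against 9.42 and 9.42. In both the groups overlapped.

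The 3 largest falls among small subunit genes were in genes for proteins with bacterial relatives, which as a class did not fall more often. Mrps9 (chr1:42851233-42905683), whose bacterial relative touches the tRNA in the P site, was at 11.01 and 10.98 in stem and at 9.62 and 9.55 in enterocyte arrays. It was 2.67-fold lower (-1.42 ± 0.06 SE, adjusted p = 0.0031), the lowest adjusted p of the members by limma. Mrps24 (chr11:5703982-5707701), the relative of bacterial S3 near the entry of the mRNA channel, was at 11.50 and 11.57 against 10.42 and 9.99 (-1.33 ± 0.18 SE), but a second, also bright probe set of the gene was not called, as given further on. The enterocyte arrays of Mrps24 were less alike than those of Mrps9. Mrps17 (chr5:129715450-129718712), a protein that binds ribosomal RNA, was at 10.11 and 10.16 against 9.26 and 9.07 (-0.97 ± 0.09 SE). Both enterocyte arrays were below both stem arrays in all 3.

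Genes for proteins of other kinds followed. Mrps35, which is specific to mitochondrial ribosomes (chr6:147042728-147070906) was at 10.92 and 10.79 in stem and at 10.08 and 9.91 in enterocyte arrays (-0.86 ± 0.10 SE). Mrps25 (chr6:92169512-92184023) was at 10.06 and 10.12 against 9.45 and 9.13 (-0.80 ± 0.13 SE), and Mrps18b, of the S18 family (chr17:35910380-35916440), at 9.44 and 9.32 against 8.63 and 8.59 (-0.77 ± 0.07 SE). The groups did not overlap in any of these genes, with adjusted p from 0.00784 to 0.024 by limma. The other 6 falls ran from -0.64 in Mrps26 to -0.52 in Mrps31, among them Mrps12 (-0.53 ± 0.09 SE), whose bacterial relative monitors decoding.

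Of the Mrps genes 2 rose. Mrps36 (chr13:100735940-100744659) was at 9.68 and 9.75 in stem and at 10.75 and 10.99 in enterocyte arrays, 2.22-fold higher (1.15 ± 0.11 SE, adjusted p = 0.00808 by limma). It was the one member that rose over 2-fold. Despite its symbol, its protein is known as a subunit of the 2-oxoglutarate dehydrogenase complex of the tricarboxylic acid cycle and is not part of the solved structures of the mitochondrial ribosome. Mrps23 (chr11:88194106-88211507), specific to mitochondrial ribosomes, was at 8.66 and 8.36 against 9.51 and 9.36 (0.92 ± 0.14 SE), and its second probe set also rose (1.50 ± 0.13 SE). Mrps6, with 8.53 and 8.63 against 8.51 and 8.53, and Mrps18a, with 9.66 and 9.66 against 9.67 and 9.73, had the highest adjusted p of the Mrps genes (0.528 and 0.663 by limma).

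**Figure D2:**
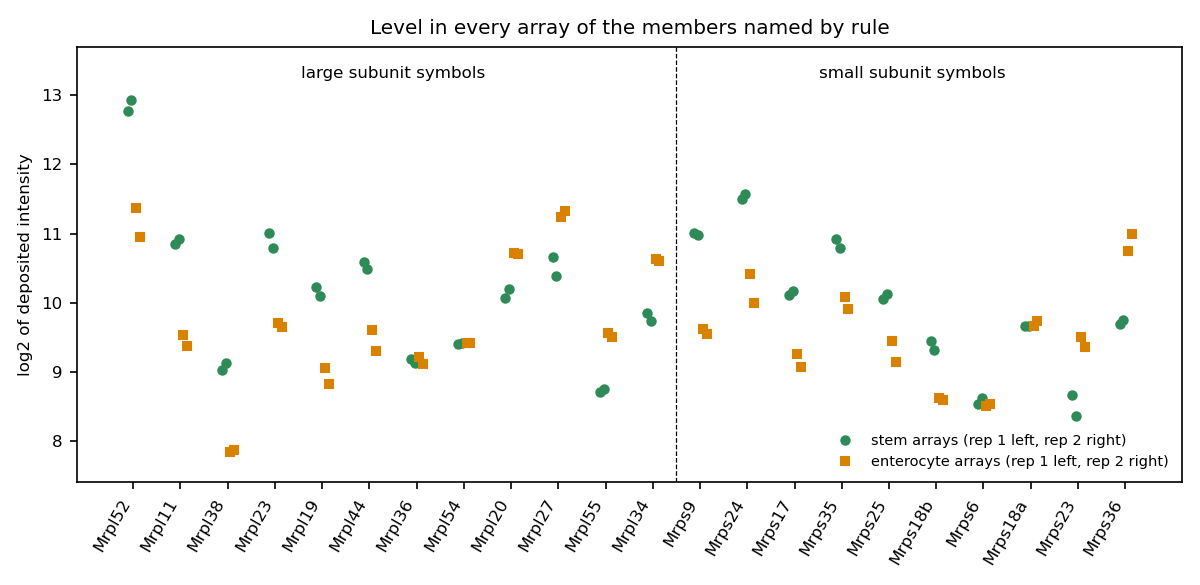
Log2 intensity in each of the 4 arrays for the 22 members chosen by rule: the largest falls, the highest adjusted p and the largest rises, for Mrpl symbols left of the dashed line and Mrps symbols right of it. Green circles are stem and orange squares enterocyte arrays. Levels of different genes come from different probe sets and are not comparable with each other; within Mrpl52 the stem arrays lie at 12.77 and 12.93 and the enterocyte arrays at 11.37 and 10.95.

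Symbols and places in the ribosome do not fully match. In the known structures Mrps18a and Mrps30 belong to the large subunit. Mrps36 belongs to neither subunit and is left out of the counts by structure and by class that follow. Placed by structure, 24 of 49 large subunit genes fell and 6 rose (median -0.36), and 12 of 24 small subunit genes fell and 1 rose (median -0.47). Of 45 genes for proteins with a bacterial relative 20 fell and 5 rose (median -0.26), and of 28 genes for proteins counted as specific to mitochondria, Mrps18b among them, 16 fell and 2 rose (median -0.41). Within the small subunit placed by structure, 6 of 15 genes with a bacterial relative fell and 0 rose (median -0.23). Of 9 small subunit genes specific to mitochondria 6 fell and 1 rose (median -0.58). Differences between these classes were not tested.

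Values of members that lie close together in the ribosome follow; these members were picked for their place in it after values were seen. Of the stalk, Mrpl11 fell as given above, while Mrpl12, which contacts the translation GTPases, was at -0.22 ± 0.06 SE (adjusted p = 0.0752) and Mrpl10, which carries Mrpl12, at 0.15 ± 0.14 SE (adjusted p = 0.447). Around the tunnel exit, Mrpl22 (-0.51 ± 0.10 SE), Mrpl24 (-0.70 ± 0.07 SE) and Mrpl47 (-0.68 ± 0.11 SE) fell with Mrpl23, and Mrpl17 was at 0.02 ± 0.05 SE. The S18 family has 3 genes in mammals. Mrps18b fell, Mrps18c, which takes the place of bacterial S18, was at -0.12 ± 0.11 SE (adjusted p = 0.452), and Mrps18a was at 0.04 ± 0.06 SE. Differences between members were not tested.

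Probe sets gave a further check. For 33 members the array holds several, 86 in all, and in 11 of these members the differences had both signs. Mrps24 was at -1.33 ± 0.18 SE on the probe set used and at 0.11 ± 0.08 SE (adjusted p = 0.361) on the other, which was also bright. Members that fell had 23 further probe sets above the background level, of which 14 were called lower and 0 higher, and 21 had a difference below 0. Mrpl52 gave -1.71 ± 0.11 SE and -1.90 ± 0.12 SE on its other bright probe sets. Mrpl41 gave -0.97 ± 0.06 SE on the probe set used and -0.03 ± 0.07 SE on another. Mrpl44 gave -1.31 ± 0.13 SE and -0.17 ± 0.12 SE on its others, and Mrpl19 gave -0.40 ± 0.18 SE on its other bright one. Members not called had 15 further probe sets above that level, of which 3 were called higher and 0 lower. Mrpl15 had 1 of 7 probe sets higher (0.81 ± 0.08 SE, adjusted p = 0.0104), Mrpl9 had its dimmer one higher (1.44 ± 0.11 SE, adjusted p = 0.00656), and Mrpl51 had 1 of its dimmer ones higher (0.31 ± 0.05 SE, adjusted p = 0.0263), all by limma over all probe sets. No member had probe sets called in both directions. With the dimmest probe set of each gene, 12 Mrpl genes fell and 5 rose, and over all genes 1943 fell and 1950 rose. In 8 members that fell on the probe set used, the dimmest one lay below the background level.

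**Figure D3:**
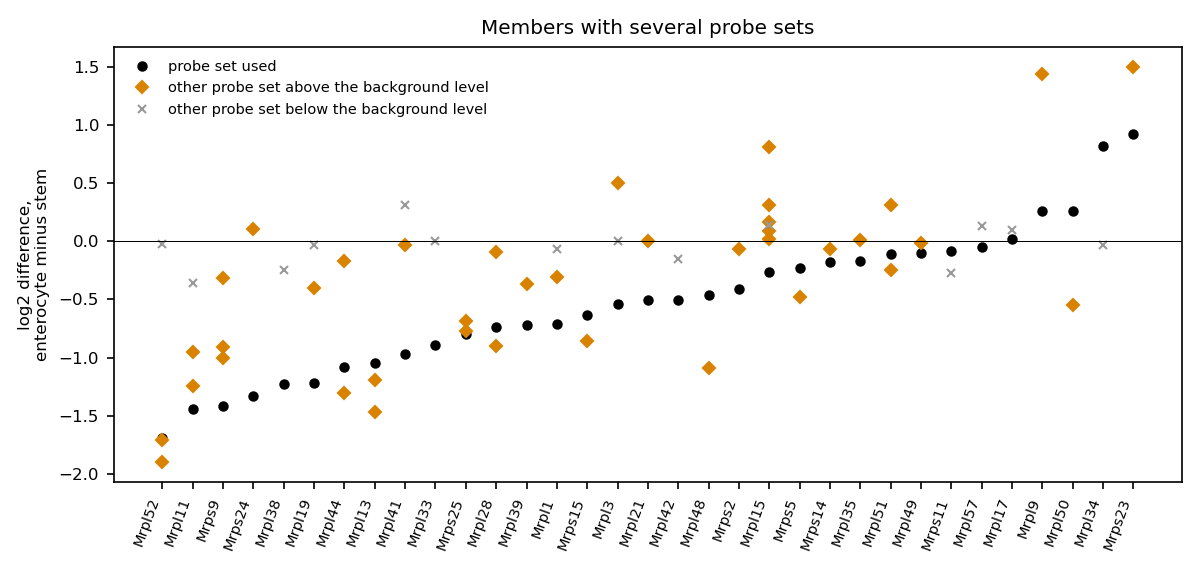
Log2 difference on each probe set of the 33 members that have several, ordered by the probe set used (black circles). Orange diamonds are other probe sets above and grey crosses other probe sets below the background level of log2 5.97. Mrpl52 holds its fall on the bright probe sets, whereas Mrps24 has a second bright probe set at 0.11.

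Genes that start next to a member on the other strand were compared, since closely spaced divergent genes can share a promoter. Of the 65 members with a window 24 (36.9%) had such a start within 1000 bases, against 16.6% of 9887 tested genes with a window. In 16 such pairs both genes were tested, Mrpl46 and Mrps11 counted as 1 pair. Both genes fell in 3 pairs (18.8%), both rose in 0 and they were called in opposite directions in 2 (12.5%), where the 404 divergent pairs among all tested genes had 12.4%, 4.46% and 10.1%. Mrps12 and Sars2, the mitochondrial seryl-tRNA synthetase gene, start 147 bases apart and both fell (-0.53 ± 0.09 SE and -0.88 ± 0.17 SE). Mrpl2 fell (-0.44 ± 0.06 SE) and Klc4, a kinesin light chain gene 141 bases away, rose (1.57 ± 0.15 SE, adjusted p = 0.0084 by limma). Mrpl14 rose and Tmem63b, 131 bases away, fell (-0.69 ± 0.09 SE). Ncapd2, a condensin subunit gene that starts 614 bases from Mrpl51, fell by 2.49 on the log2 scale (SE 0.13), and Mrpl51 was at -0.11 ± 0.05 SE. Mrpl18 was at 0.17 ± 0.08 SE and Tcp1, a chaperonin gene 238 bases away, fell (-0.75 ± 0.06 SE). Mrpl46 and Mrps11, a large and a small subunit gene, start 42 bases apart and were at -0.06 ± 0.05 SE and -0.08 ± 0.07 SE. The window of Mrps11 (chr7:78782881-78783180, plus strand) covers the starts of both, with the YY1 motif in capitals as its reverse complement.
Mrps11: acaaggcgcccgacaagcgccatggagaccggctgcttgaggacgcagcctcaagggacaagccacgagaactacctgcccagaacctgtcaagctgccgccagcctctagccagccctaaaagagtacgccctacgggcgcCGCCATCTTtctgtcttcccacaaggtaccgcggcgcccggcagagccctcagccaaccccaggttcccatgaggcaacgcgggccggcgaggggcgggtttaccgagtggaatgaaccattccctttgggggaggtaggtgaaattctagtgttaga

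**Figure D4:**
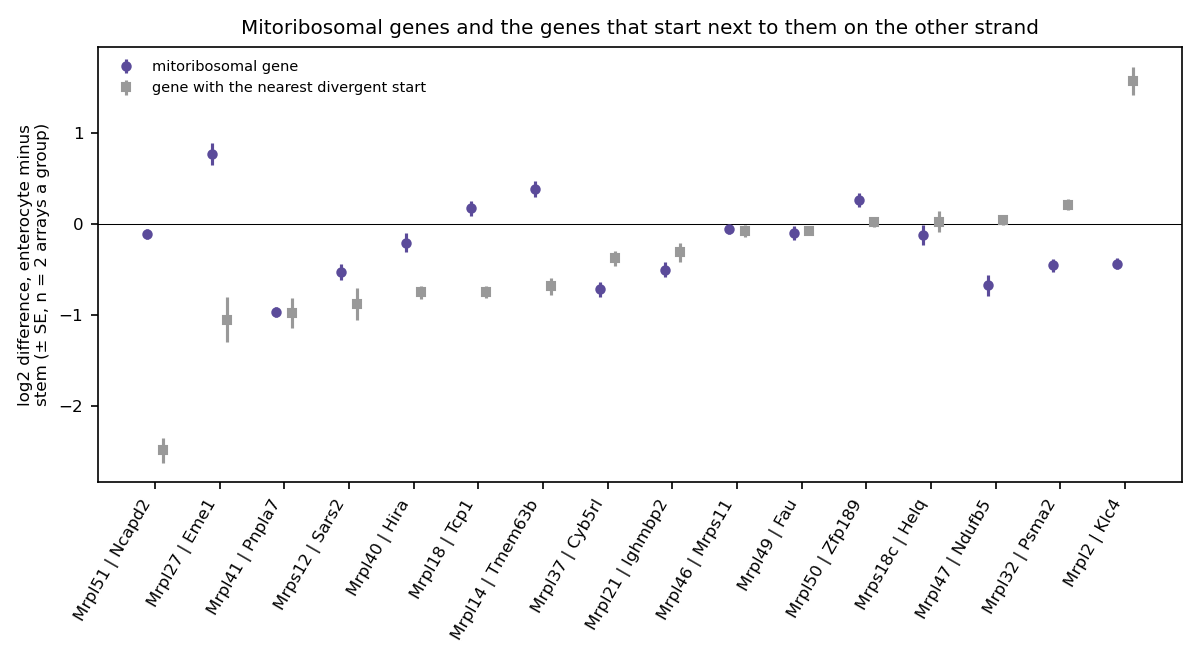
Log2 difference of each mitoribosomal gene (purple circles) and of the gene with the nearest divergent start within 1000 bases (grey squares), with limma's standard errors (n = 2 arrays per group), ordered by the neighbour's difference. Mrpl46 and Mrps11 are drawn once, as a pair. The largest gap is between Mrpl51 at -0.11 and Ncapd2 at -2.49.

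Other genes of mitochondrial gene expression were mostly lower in enterocytes or not called. At the same threshold 22.4% of all genes were lower and 18.2% higher. Of 4 measured mitoribosomal proteins under other names 3 fell, among them Gadd45gip1 (-1.44 ± 0.12 SE), a large subunit protein, and Ptcd3 (-1.42 ± 0.10 SE), a small subunit protein at the mRNA entry. Of 17 genes for mitoribosome assembly 10 fell and 0 rose (median -0.82), led by the RNA helicase gene Dhx30 (-2.10 ± 0.25 SE) and Fastkd2 (-1.74 ± 0.09 SE), both needed for the large subunit. Of 8 mitochondrial tRNA synthetase genes 5 fell and 0 rose (median -0.92), with Tars2 at -1.64 ± 0.07 SE. Genes of mitochondrial RNA processing fell in 7 of 10 cases with 0 rises (median -1.04), with the tRNA modifier gene Trit1 at -2.37 ± 0.11 SE, and genes of mitochondrial DNA maintenance and transcription fell in 7 of 12 with 0 rises (median -0.81), with Top1mt at -1.96 ± 0.07 SE. These counts were lower when 1 array was left out, as were those over all genes. Such runs leave 1 array in a group and fewer degrees of freedom, so they cannot show whether a particular array carries the counts. Without either stem array limma called 0 genes of these lists. With enterocyte replicate 1 or 2 left out, falls went to 4 and 3 for assembly, 2 and 2 for tRNA synthetases, 0 and 0 for RNA processing and 4 and 3 for DNA maintenance and transcription. Translation factors were mixed: 3 of 9 fell (33.3%) and 1 rose (11.1%), not far from the shares of all genes. The initiation factor gene Mtif2 fell (-1.21 ± 0.27 SE), and the elongation factor gene Gfm1 rose (0.29 ± 0.06 SE).

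Genes for the complexes that the mitochondrial ribosome serves stood on the other side. Of 76 nuclear genes for respiratory chain and ATP synthase subunits 38 rose (50%) and 3 fell (3.95%), with a median of 0.44. Over all genes 18.2% rose and 22.4% fell. Uqcrfs1, the iron-sulfur subunit of complex III, rose 3.61-fold (1.85 ± 0.10 SE), and Cox7a1, a subunit isoform of complex IV, 39.8-fold (5.31 ± 0.26 SE). The stem arrays of Cox7a1, at log2 7.09 and 6.45, were not far above the background level of 5.97. Of the falls, Cox6b2 was at -1.66 ± 0.11 SE and Ndufs7 at -0.68 ± 0.08 SE. Cox6b2 lay below the background level in both enterocyte arrays (5.39 and 5.43). Of 15 genes of the tricarboxylic acid cycle and porins 9 rose and 0 fell (median 0.87). With enterocyte replicate 1 or 2 left out, 6 and 3 respiratory genes rose and 0 fell, and 3 and 3 genes of the cycle list rose. Under reference gene centring the respiratory list had 21 rises and 11 falls, and the cycle list 9 rises and 3 falls. Cytosolic ribosomal protein genes fell in 35 of 41 cases with 0 rises (median -0.79), and nucleolar genes of ribosome biogenesis in 21 of 21 (median -2.01). Leaving out the same arrays gave 17 and 16 falls for cytosolic and 9 and 7 for nucleolar genes, and leaving out either stem array gave 0 calls in all 4 lists. The medians of the mitoribosomal genes, -0.36 and -0.25, thus lay between those of the respiratory and the cytosolic ribosomal lists, and whether the lists differ was not tested.

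**Figure D5:**
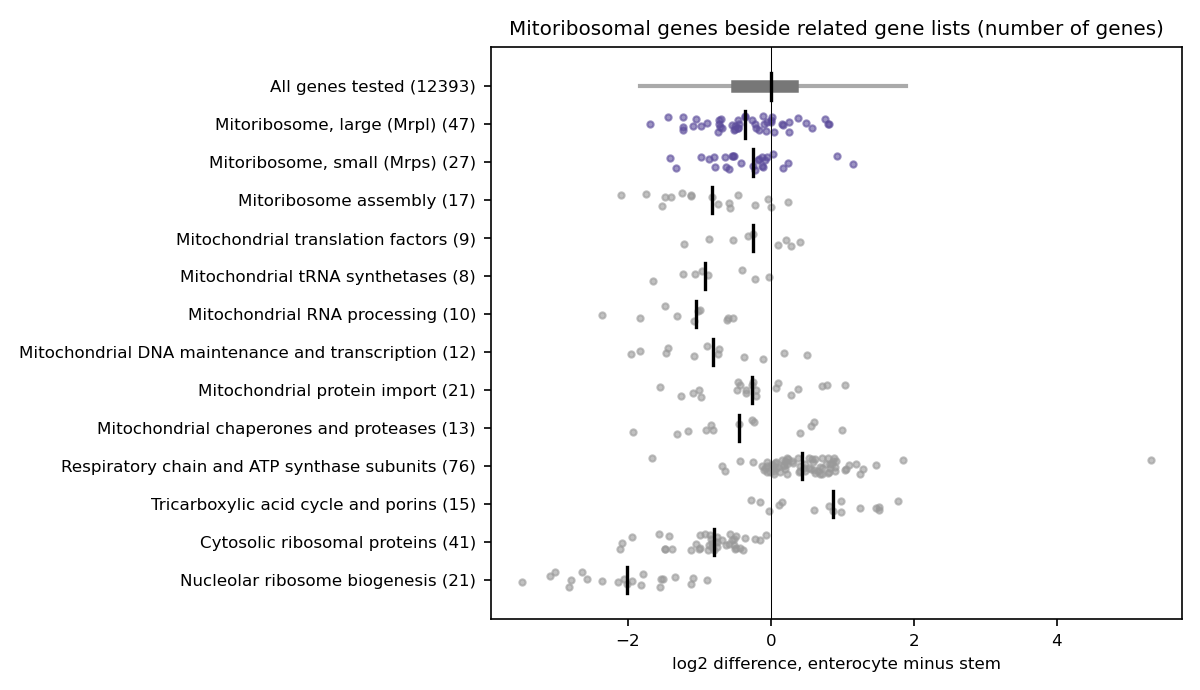
Log2 difference between enterocyte and stem arrays for all genes tested (bars from the 5th to 95th and 25th to 75th percentile), mitoribosomal genes (purple) and related lists (grey), 1 point per gene, with the median as a black line. Medians run from -2.01 for nucleolar ribosome biogenesis to 0.87 for the tricarboxylic acid cycle and porins, with Mrpl at -0.36 and Mrps at -0.25.

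Of 10 regulators of mitochondrial gene programmes 2 rose (20%) and 3 fell (30%), near the 18.2% and 22.4% of all genes. Ppargc1a, a coactivator of mitochondrial biogenesis, was at log2 7.53 and 7.71 in stem and at 9.74 and 10.73 in enterocyte arrays, 6.11-fold higher (2.61 ± 0.40 SE, adjusted p = 0.0195 by limma). Its enterocyte arrays differed by nearly 1 in log2 and still lay above both stem arrays. Esrra, a nuclear receptor that works with it, rose 1.98-fold (0.99 ± 0.09 SE). Pprc1, a related coactivator linked to growth, fell (-2.02 ± 0.27 SE), as did Myc (-1.97 ± 0.17 SE) and Nrf1 (-0.58 ± 0.11 SE). The GABP subunit genes Gabpa (0.37 ± 0.35 SE) and Gabpb1 (-0.79 ± 0.21 SE) did not pass, with adjusted p of 0.469 and 0.0644 by limma. Nor did Ppargc1b (-0.20 ± 0.09 SE), Mycn (-0.18 ± 0.18 SE) and Yy1 (-0.03 ± 0.05 SE), with adjusted p of 0.19, 0.502 and 0.72.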

How the data were processed

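RNA of 4 samples was measured on Affymetrix mouse arrays from 100 ng of total RNA. The deposited values are linear intensity units, 1 per probe set and array (7.93 to 41704, array medians 102 to 111); RMA is named per the submitters' processing notes, without a version, and the settings are not given in the sources used here. Log2 of each deposited intensity was taken. Of 22690 probe sets, 64 controls were left out; the platform annotation gave 691 several symbols and did not list 1606. The probe set with the highest mean stood for each of 12393 genes. All 74 members matched RefSeq (GRCm38.p6), used for positions and promoters.

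The 2 groups were compared by limma (version 3.58.1, lmFit then eBayes, R 4.3.3) in two-sided tests, at 2 residual and 1.23 prior degrees of freedom. Both stem arrays held the same value in 1268 genes and both enterocyte arrays in 1048 (5 and 1 members), which lowers the spread seen. The steps were tested on simulated data. The number of arrays limits precision. Named in full are, per subunit, the 6 largest falls, up to 4 largest rises and the 2 highest adjusted p, and up to 2 genes per direction of each related list. The members, lists and rules were chosen with earlier results of these data known. Alternatives covered pairing, left-out replicates, a low-value filter, probe sets, normalization, the variance model, a pseudocount of 16 and subunit placement. There were 0 columns without a sample.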

Additional observations from a re-analysis of the deposited data

How the results depend on the processing

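The direction of the medians held in every alternative run, while the counts moved. Medians for Mrpl genes were -0.23 with the mean over probe sets and -0.064 with the probe set of lowest mean. They were -0.21 without probe sets whose names end in _a_at, _s_at or _x_at, -0.51 after quantile normalization and -0.73 under reference gene centring. For Mrps genes the medians were -0.33 without such probe sets, -0.33 after quantile normalization, -0.61 under centring and -0.47 with subunits placed by structure. Fewer Mrpl genes fell with the lowest probe set (12) or without the _a_at, _s_at and _x_at probe sets (15). The latter run measured 41 Mrpl and 18 Mrps genes, with 1 Mrps rise. Falls over all genes were fewer too, 1943 with the lowest probe set and 1999 of 10529 in the latter run, against 2779 in the main run. By structure, with Mrps36 left out, 1 small subunit gene rose. Centring gave 2 Mrpl rises, 21 Mrps falls and 5387 falls over all genes. On its dimmest probe set, which lay below the background level, Mrpl34 was at -0.033. Mrps24 was at 0.11 on its dimmest probe set, which was bright. Leaving out 1 array gave 0 to 6 falls and 0 to 1 rises among Mrpl genes, 0 to 6 and 0 to 1 among Mrps genes, and 0 to 1058 and 0 to 663 over all genes (limma), with medians of -0.41 to -0.32 and -0.33 to -0.17. The 0 counts came without a stem array, with 4675 and 4817 genes at an unadjusted p under 0.05. With the replicate number as a block 17 Mrpl genes fell and 5 rose, and 11 Mrps genes fell and 2 rose. Over all genes 2557 fell and 2010 rose in that run. The replicate numbers are not stated to pair samples, and their deviations correlated at 0.05 across genes. Named members gave 192 values under the alternatives that keep all arrays, the block included. Of these values 179 kept their side of the threshold, 11 lost the call and 2 called ones turned sign. A value called neither in the main run nor in the alternative counted among the 179 whatever its sign. With 1 array left out most called values lost the call. Applying the alternatives to the related lists was chosen after seeing the data. The cause of these changes was not tested.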

Other observations

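Genes that bring proteins into mitochondria and fold them there were measured too. Of 21 genes of the import complexes 7 fell (33.3%) and 4 rose (19.0%), with a median of -0.26, against 22.4% and 18.2% of all genes. Timm44, which anchors the import motor, fell (-1.55 ± 0.05 SE), and Timm17a, a subunit of the inner membrane channel, rose (1.03 ± 0.09 SE). Of 13 chaperone and protease genes 6 fell (46.2%) and 1 rose (7.69%; median -0.45): Clpp, the peptidase of the matrix, fell (-1.92 ± 0.12 SE) and Afg3l2, a protease known in mice and yeast to process the precursor of Mrpl32, rose (0.57 ± 0.12 SE, adjusted p = 0.0386 by limma). Mrpl32 itself fell by 0.46 on the log2 scale.

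Signals of 9 hybridisation control probe sets differed between the groups by -2.55 to -0.001 (log2, enterocyte minus stem), with a median of -0.78. The bioB sets, the dimmest, ran from -2.55 to -1.90. Those of bioC and bioD ran from -0.80 to -0.67. The cre sets, the brightest, were at -0.0015 and -0.001. The part of these differences in the results was not tested.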
